A study of Mus musculus with 7 samples.

Results

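The EGF and neuregulin family was followed in macrophages of the injured sciatic nerve through 9 genes, the ligands Areg, Ereg, Hbegf, Nrg1, Tgfa and Btc and the receptors Egfr, Erbb2 and Erbb3. They were chosen by name, with earlier results of these data known. All 9 were found by exact symbol among the 23361 genes quantified. The RNASeq libraries came from macrophages sorted as Lin- F4/80+ CD14+ CD11b+ CD16/32+ cells, where the markers used for exclusion included Ly6G for granulocytes and Thy1.2 for fibroblasts. The cells came from tissue bridging a conduit that joined the stumps of a transected sciatic nerve. The mice were wild-type BALB/cJ, an inbred strain, with no transgene and no drug under comparison. By the study's methods, operated mice were given meloxicam for analgesia before surgery and again the day after. Day 5 after repair had 3 libraries, day 14 had 2 and day 28 had 2, which the series describes as independent biological replicates, whereas a figure legend of the study gives equal groups of 3. Whether a library held the cells of 1 mouse or of several was not established, and the age and sex of these mice were not given in the sources used here. No uninjured nerve was among the libraries, so each day is compared only with the other days. Fragments assigned to genes, which with single-end reads are reads, numbered 26167372, 21509710 and 21889611 at day 5, 18027190 and 20822892 at day 14, and 35247116 and 18101976 at day 28.

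Ligands of this family are made as membrane-anchored precursors that proteases such as ADAM17 cut free. Amphiregulin, epiregulin, heparin-binding EGF-like growth factor, TGF-alpha and betacellulin bind the EGF receptor, and some of them also bind ERBB4, whereas neuregulins bind ERBB3 and ERBB4, which signal together with ERBB2. In peripheral nerve, neuregulin 1 is best known as the axonal signal that governs Schwann cell survival and myelination through ERBB2 and ERBB3, and amphiregulin is known as a repair factor made by several kinds of immune cell.

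Levels are given as FPKM, a measure that divides fragments by transcript length and by the size of the library, which allows genes of different length to be compared. Differences between days were tested on the estimated fragment counts with edgeR's quasi-likelihood test, in 1 fit of all 7 libraries, and are given as log2 fold changes with an approximate standard error (SE). A gene was called at a Benjamini-Hochberg adjusted p under 0.05 over the 12858 genes that passed the filter on low counts. Stringent calls were those with means at least 2-fold apart and 5 FPKM or more on 1 of the days. The filter kept 7 of the 9 members and left out Tgfa and Btc. The 3 comparisons share libraries, so their results are not independent of each other. In bulk RNA of sorted cells, fewer cells expressing a gene cannot be told apart from less of its RNA in each cell.

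Between days 5 and 14, 2 members were called, Areg and Nrg1, both lower at day 14 and both by the stringent rule as well. Of all genes tested, 4.78% were called in this comparison, 1.94% as lower at day 14, and 1.17% by the stringent rule. Between days 14 and 28 no member was called by edgeR, where 0.0622% of all genes were called and 0.0467% by the stringent rule. At an unadjusted p under 0.05 this last comparison had 2 members, Areg and Ereg, and 12.2% of all genes tested. DESeq2, another count test, called 1 member between days 14 and 28 and 2.58% of all genes, and limma on log2 FPKM values called 0 of both. Between days 5 and 28, 1 member was called, Nrg1, lower at day 28 and also by the stringent rule. The background there was 15.2% of all genes called, 7.51% as lower and 3.52% by the stringent rule. With 7 members tested, 1 call between days 5 and 28 is near the share of all genes. The members were chosen with earlier results of these data known. Areg and Nrg1 are also on a gene panel that the study designed with its RNASeq results in view. The members called are therefore a description beside the shares of all genes, not an independent comparison with them.

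**Figure D1:**
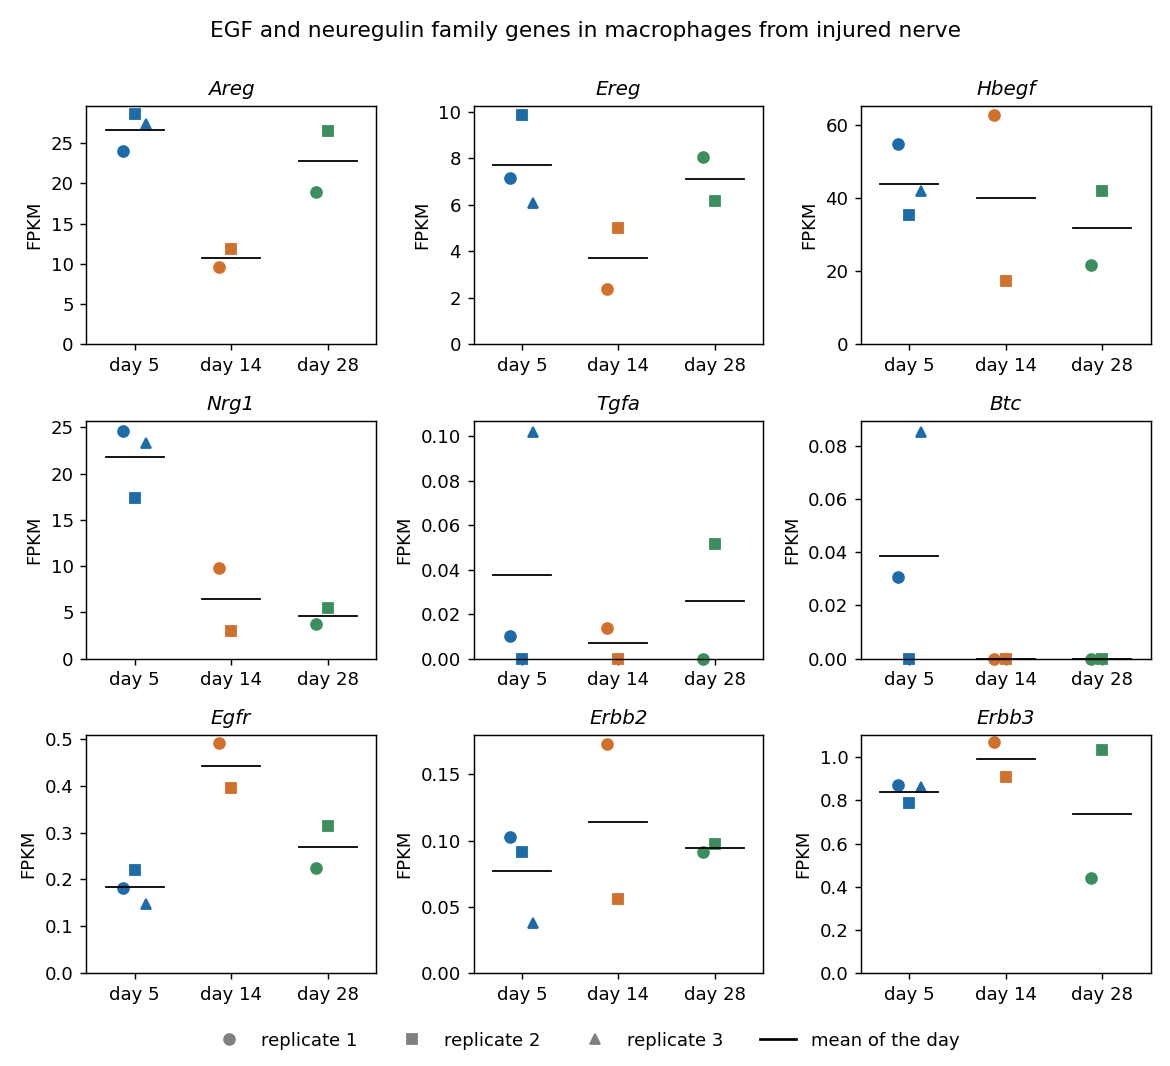
Level of each of the 9 members in FPKM (vertical axes, each from 0 and with its own range) against the day after nerve repair, with 1 point per library and a line at the mean of each day. The day 14 points of Areg, at 9.58 and 11.8 FPKM, lie below those of days 5 and 28, and the day 5 points of Nrg1, from 17.3 to 24.6 FPKM, lie above all others.

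The cells carried macrophage transcripts at a high level on every day. The summed level of the 11 macrophage markers measured ran from 17663 to 23742 FPKM over the 7 libraries, all 11 were above 3 fragments in every library, and Lyz2 was the most abundant. Without Lyz2 the sums were 7644, 7057 and 6988 FPKM at day 5 and 6187 and 5366 FPKM at day 14. At day 28 they were 5029 and 5432 FPKM, so every day 5 library was above the later ones, as for Nrg1. With Lyz2 the days overlapped, with 19475, 20174 and 17663 FPKM at day 5. The sums were then 19004 and 23742 FPKM at day 14, and 20014 and 19294 FPKM at day 28. Among the genes of the sort markers, Cd14 was called lower than at day 5 at day 14 (log2 fold change -0.75, adjusted p = 0.0357, edgeR) and at day 28 (-0.76, adjusted p = 0.0145), and Emr1 at day 28 (-1.01, adjusted p = 0.00650), as was the macrophage marker Aif1 (-1.01, adjusted p = 0.00515). No other macrophage marker was called. At day 28 against day 5, Csf1r, Fcgr3 and Lyz2 had log2 fold changes of 0.11, 0.12 and 0.29, and the rest had negative ones. In sum, the marker lists of other cells were far lower, but not even across the days. Single genes overlapped in level. The neutrophil marker S100a9 averaged 314 FPKM at day 14, above Emr1 at 297, Fcgr3 at 266 and Itgam at 238 FPKM. Aif1 and Mertk were also below it, and the other macrophage markers were above it. Pmp22, a Schwann cell marker, ran from 133 to 283 FPKM. Neutrophil markers had the highest sums of these lists at day 14, given below. The 9 fibroblast markers summed to 78.2, 36.7 and 29.8 FPKM at day 5, 239 and 88.3 FPKM at day 14, and 41.1 and 63.3 FPKM at day 28. Their most abundant gene was Col1a1, none was at 0 throughout, and 8 of the 9 were above 3 fragments in every library. Day 14 replicate 1 therefore stood out for fibroblast transcripts, and the pair of day 14 libraries also differed from each other most, with a chi-square per degree of freedom of 63.6 against 49.4 at day 28 and 15.5 to 21.9 at day 5. Dendritic cell markers, 7 genes led by Ccr7, summed to between 8.24 and 30.6 FPKM. B cell markers, 5 genes, reached at most 10.8 FPKM through Cd79b, with Pax5 at or under 3 fragments in every library, and the 7 epithelial markers reached at most 4.63 FPKM. The 11 markers of T, NK and innate lymphoid cells, led by Cd4, summed to 5.72, 3.42 and 4.31 FPKM at day 5, 17.0 and 9.56 FPKM at day 14, and 5.55 and 8.94 FPKM at day 28. Of single markers of other cells, Ccr7 and Cdh1 were called higher at day 28 than at day 5 (log2 fold changes 1.43 and 1.02, adjusted p = 0.04001 and 0.0488, edgeR). Postn, Cd4, Tek and Mbp were also called higher at day 28, and Kdr, Pecam1 and Pmp22 lower, with values given below.

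**Figure D2:**
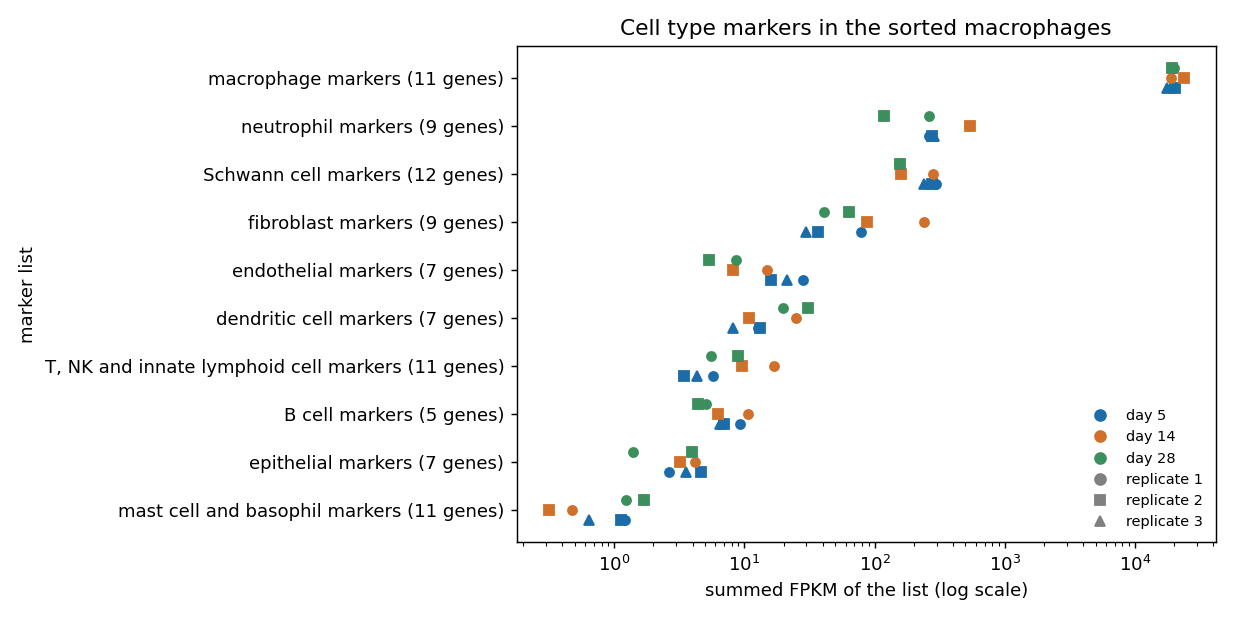
Summed FPKM of each list of cell type markers (horizontal log axis) in the 7 libraries, coloured by day and shaped by replicate. Macrophage markers lie at 17663 FPKM or more in every library, while fibroblast markers reach 239 FPKM in day 14 replicate 1.

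Hbegf had the highest mean level of the family, at 39.4 FPKM over the 7 libraries, followed by Areg at 21.0, Nrg1 at 12.5 and Ereg at 6.38 FPKM. The receptors came next, with Erbb3 at 0.853, Egfr at 0.282 and Erbb2 at 0.0928 FPKM, and Tgfa and Btc were last at 0.0253 and 0.0166 FPKM. Hbegf exceeded the mean level of 83.9% of all genes tested, Areg 72.5%, Nrg1 61.0% and Ereg 46.0%, but Erbb3 only 17.0%, Egfr 7.34% and Erbb2 1.39%. The order among the ligands was not the same on each day. At day 5 the ranges of Areg and Nrg1 overlapped, and at day 28 those of Hbegf and Areg did. Nrg1 lay above Ereg in each day 5 library and below it in each day 28 library.

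Areg, which encodes amphiregulin (ENSMUSG00000029378, chromosome 5, 91139599 to 91148432, plus strand of GRCm38), measured 24.1, 28.7 and 27.4 FPKM in the day 5 libraries, 9.58 and 11.8 FPKM at day 14, and 19.0 and 26.5 FPKM at day 28. Both day 14 libraries were below every other library, and the day 28 libraries reached into the range of day 5. These values rested on 173 to 733 fragments per library. Means ± SD were 26.7 ± 2.38, 10.7 ± 1.59 and 22.8 ± 5.34 FPKM for days 5, 14 and 28 (n = 3, 2 and 2). Areg fell by 1.31 on the log2 scale from day 5 to day 14 (SE 0.19, adjusted p = 0.0134, edgeR), a 2.47-fold difference in the fit. From day 14 to day 28 its log2 fold change was 1.08 (SE 0.20), short of the threshold with edgeR (adjusted p = 0.0800). Day 28 did not differ from day 5 beyond the spread between replicates (log2 fold change -0.22, SE 0.17, adjusted p = 0.422, edgeR), and without day 28 replicate 1 the same log2 fold change was 0.003.

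The call for Areg at day 14 was lost without day 5 replicate 3 (adjusted p = 0.0571, edgeR), with a log2 fold change of -1.28. The later difference, from day 14 to day 28, was called by DESeq2 (adjusted p = 6.40e-04), by edgeR without the filter on low counts (adjusted p = 0.00167) and by edgeR without day 14 replicate 2 (adjusted p = 0.0146). Summed levels of lists of other cells ran with Areg or against it over the days. No neutrophil, mast cell or basophil marker was called in any comparison. The lowest adjusted p among them was 0.0515, for S100a9 at day 14 against day 5 (edgeR). The 9 neutrophil markers measured, led by S100a9, summed to 260, 279 and 289 FPKM at day 5, 528 and 540 FPKM at day 14, and 263 and 119 FPKM at day 28, with 5 of the 9 above 3 fragments in every library and Elane at 0. The 11 mast cell and basophil markers were lowest at day 14 too, summing to 1.20, 1.13 and 0.645 FPKM at day 5, 0.474 and 0.314 FPKM at day 14, and 1.23 and 1.71 FPKM at day 28. Kit was the most abundant, 2 of the 11 were above 3 fragments in every library, and Mcpt8, Prss34 and Fcer1a were at 0 throughout. Markers of lymphoid cells and fibroblasts were highest in sum at day 14, where Areg was lowest. For the lymphoid list this rested on Cd4, and without it the sums of the days overlapped. They were then 2.095, 1.121 and 1.487 FPKM at day 5, 3.901 and 2.023 FPKM at day 14, and 1.005 and 2.119 FPKM at day 28. Called higher at day 14 than at day 5 were Cd4 (log2 fold change 1.83, adjusted p = 0.0157, edgeR), Col1a2 (1.86, adjusted p = 0.0350) and Postn (2.71, adjusted p = 0.0184), and Cd4 and Postn were also called higher at day 28 (0.96, adjusted p = 0.0471, and 1.99, adjusted p = 0.0185), where Areg was not called. Granulocytes positive for Ly6G were excluded by the sort, and the part of any cells of these kinds in the level of Areg was not tested.

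The promoter of Areg is shown because Areg is the called member for which a promoter sequence was at hand. Promoters of 300 bases, from 250 bases before to 50 after the start of the gene, were matched by symbol for 5 of the 9 members in RefSeq sequences of GRCm38.p6, namely Areg, Btc, Tgfa, Egfr and Erbb2. Ereg, Hbegf, Nrg1 and Erbb3 were not matched. The window of Areg spans chr5:91139349-91139648 on the plus strand and is written 5′ to 3′, with capitals marking a cAMP response element and a TATA box.
Areg promoter: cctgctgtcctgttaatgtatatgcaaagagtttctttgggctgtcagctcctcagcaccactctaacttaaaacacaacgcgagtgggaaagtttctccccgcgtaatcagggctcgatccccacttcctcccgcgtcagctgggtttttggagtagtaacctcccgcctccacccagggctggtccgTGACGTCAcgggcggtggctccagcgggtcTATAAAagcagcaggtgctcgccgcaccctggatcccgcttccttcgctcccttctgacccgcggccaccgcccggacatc

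The element TGACGTCA, a palindrome searched on both strands, began 61 bases before the start of Areg. It was present in 1.79% of the 32851 promoters of the same length. TATAAA began 31 bases before the start, and 13.6% of promoters held it on either strand. An AP-1 site, TGANTCA on both strands, was not in the Areg window and was held by 7.81% of promoters. None of the 3 motifs was found in the windows of Btc, Tgfa, Egfr and Erbb2. A match describes letters in a sequence and is not evidence that a factor binds there.

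Ereg, which encodes epiregulin (ENSMUSG00000029377, chromosome 5, 91074622 to 91093646, plus strand), lies next to Areg. Its libraries measured 7.14, 9.86 and 6.07 FPKM at day 5, 2.37 and 4.99 FPKM at day 14, and 8.03 and 6.16 FPKM at day 28. As for Areg, both day 14 libraries were the lowest, without overlap with either of the other days, while days 5 and 28 overlapped. The log2 fold change was -1.04 from day 5 to day 14 (SE 0.31, adjusted p = 0.0837, edgeR) and 0.95 from day 14 to day 28 (SE 0.33, adjusted p = 0.298), so neither step was called. DESeq2 called the earlier step (adjusted p = 0.00691), as did edgeR without the filter (adjusted p = 0.00478) and without day 14 replicate 2 (adjusted p = 0.0158). Without the same library the later step was called as well (adjusted p = 0.0105, edgeR), and without the filter it was at adjusted p = 0.0384. The pair of day 14 libraries pulled Ereg apart, with log2 fold changes of -0.61 (adjusted p = 0.150) and 0.51 (adjusted p = 0.559) for the earlier and later step without replicate 1, and -1.69 and 1.59 without replicate 2. Over the 7 libraries the log2(FPKM + 1) values of Ereg and Areg correlated at 0.81, a description of 7 points in 3 groups.

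Hbegf, which encodes heparin-binding EGF-like growth factor (ENSMUSG00000024486), was at 54.8, 35.3 and 41.9 FPKM at day 5, 62.9 and 17.2 FPKM at day 14, and 21.8 and 42.0 FPKM at day 28. The highest and the lowest of the 7 libraries were both from day 14, a 3.66-fold gap within 1 day, and all days overlapped. No comparison was called with all libraries in the fit, with log2 fold changes of -0.13 (SE 0.46, adjusted p = 0.891, edgeR) from day 5 to day 14, -0.32 (SE 0.50, adjusted p = 0.835) from day 14 to day 28 and -0.46 (SE 0.46, adjusted p = 0.539) from day 5 to day 28. These standard errors leave room for a change of 1.5-fold or more in either direction at day 14. The direction at day 14 depended on the library left out. Without day 14 replicate 1 Hbegf was called lower than at day 5 (log2 fold change -1.34, adjusted p = 0.0243, edgeR), and without day 14 replicate 2 the log2 fold change was 0.52 (adjusted p = 0.456). Without day 5 replicate 1 it was 0.06 (adjusted p = 0.969). From day 14 to day 28 the direction turned as well, to 0.89 without day 14 replicate 1 and 0.07 without day 28 replicate 1. Against day 5, Hbegf at day 28 was at -0.06 without day 28 replicate 1 and at -1.004 without day 28 replicate 2. Day 14 replicate 1, the library highest in Hbegf, was also the one highest in fibroblast markers, at 239 FPKM against 88.3 FPKM in replicate 2, although the sort excluded cells positive for Thy1.2, and the part of fibroblast RNA in the level of Hbegf was not tested.

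Nrg1, which encodes neuregulin 1 (ENSMUSG00000062991, chromosome 8, 31814551 to 32884029, minus strand), was at 24.6, 17.3 and 23.3 FPKM at day 5, 9.82 and 2.97 FPKM at day 14, and 3.71 and 5.41 FPKM at day 28. Every day 5 library was above every later library, and days 14 and 28 overlapped. The counts behind these values ran from 127 to 1141 fragments. Means ± SD were 21.8 ± 3.89, 6.39 ± 4.84 and 4.56 ± 1.20 FPKM for days 5, 14 and 28. Nrg1 fell by 1.78 on the log2 scale from day 5 to day 14 (SE 0.41, adjusted p = 0.0447, edgeR) and fell by 2.26 from day 5 to day 28 (SE 0.42, adjusted p = 0.00941, edgeR), fitted differences of 3.42-fold and 4.79-fold. Days 14 and 28 differed by -0.48 on the same scale (SE 0.44, adjusted p = 0.703, edgeR). FPKM sums the transcripts of a gene, so the isoforms of neuregulin 1 were not separated here.

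The day 14 call for Nrg1 was close to the threshold, and its size hung on the pair of day 14 libraries, with a log2 fold change of -2.86 without replicate 1 (adjusted p = 2.27e-04, edgeR) and -1.15 without replicate 2 (adjusted p = 0.0493). The call was lost without day 5 replicate 1, 2 or 3 (adjusted p = 0.127, 0.0919 and 0.116, edgeR) and without day 28 replicate 1 or 2 (adjusted p = 0.0714 and 0.0745). It was also lost with limma on log2(FPKM + 1) (adjusted p = 0.0551) and log2(FPKM + 0.1) (adjusted p = 0.0590) and in a fit of days 5 and 14 alone (adjusted p = 0.0719, edgeR). The day 28 call was lost without day 28 replicate 1 (adjusted p = 0.109, edgeR), with a log2 fold change of -2.00. From day 14 to day 28, Nrg1 was at 0.60 without day 14 replicate 1 (adjusted p = 0.527) and at -1.12 without day 14 replicate 2 (adjusted p = 0.0353, edgeR), so its course after day 14 rests on which of the pair is used.

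Among the endothelial markers some genes were lower on the later days, like Nrg1, and others were not. The 7 genes summed to 28.4, 15.9 and 21.3 FPKM at day 5, 14.9 and 8.23 FPKM at day 14, and 8.68 and 5.33 FPKM at day 28, with Kdr the most abundant, 4 of the 7 above 3 fragments in every library and none at 0 throughout. Kdr and Pecam1 were called lower at day 28 than at day 5, with log2 fold changes of -3.02 (adjusted p = 0.00290, edgeR) and -1.80 (adjusted p = 0.0145). Tek was called higher, at 4.63 (adjusted p = 0.0208), from 2, 0 and 0 fragments at day 5 to 46 and 9 at day 28. The other 4 were not called, with Tie1 at 1.01, Cdh5 at -0.09, Cldn5 at -0.01 and Esam at -0.70. Schwann cell markers summed to 294, 275 and 242 FPKM at day 5, 280 and 159 FPKM at day 14, and 153 and 156 FPKM at day 28, most of it from Pmp22. At day 28 against day 5, Pmp22 was called lower (log2 fold change -0.92, adjusted p = 0.0314, edgeR) and Mbp higher (0.75, adjusted p = 0.0296). Without Pmp22 and Mbp the other 10 Schwann cell markers summed to between 0.343 and 0.997 FPKM, Mal was at 0 throughout, and Gfap and Foxd3 did not exceed 3 fragments. CD31 is in the study's table of sorting antibodies, but not among the exclusion markers its methods name, and the part of endothelial cells in the level of Nrg1 was not tested.

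Tgfa, which encodes TGF-alpha (ENSMUSG00000029999, chromosome 6, 86195223 to 86275719, plus strand), had 1, 0 and 9 fragments at day 5, 1 and 0 at day 14, and 0 and 4 at day 28. Btc, which encodes betacellulin (ENSMUSG00000082361, chromosome 5, 91357261 to 91402994, minus strand), had 2, 0 and 5 fragments at day 5 and 0 in all 4 later libraries. Both genes were thus at or near the limit of detection, and Tgfa exceeded 3 fragments in day 5 replicate 3 and day 28 replicate 2 and Btc in day 5 replicate 3. A count of 0 allows up to 3 fragments, which is 0.0851 CPM in the deepest library and 0.166 CPM in the shallowest, covering counting error only. Tgfa and Btc did not pass the filter, so their differences between days were not tested in the fit used here.

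Summed over the 6 ligands, the level was 110.7, 91.2 and 98.9 FPKM at day 5, 84.7 and 37.0 FPKM at day 14, and 52.5 and 80.1 FPKM at day 28. Hbegf made up the largest share in each library, from 38.7% in day 5 replicate 2 to 74.3% in day 14 replicate 1. Nrg1 held 19.0% to 23.6% of the sum at day 5, 8.04% and 11.6% at day 14, and 6.75% and 7.07% at day 28, and these 3 ranges did not overlap. Areg held 21.7% to 31.4% at day 5, 11.3% and 32.0% at day 14, and 33.1% and 36.2% at day 28. These shares are of transcript level and do not weigh how much of each precursor is cut free.

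**Figure D3:**
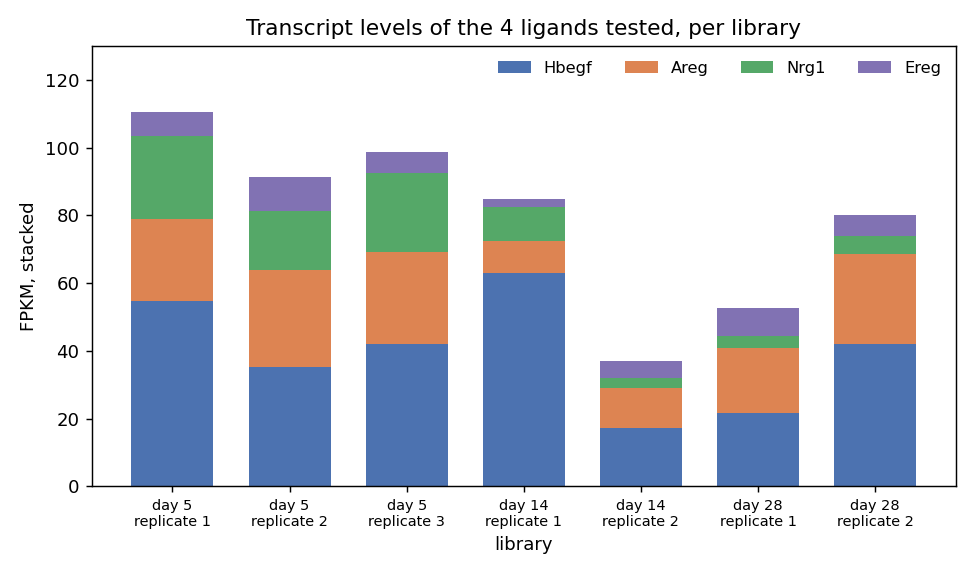
Stacked FPKM of the 4 ligands tested (vertical axis, from 0) in each library (horizontal axis). The stack is highest in day 5 replicate 1 and lowest in day 14 replicate 2, whose sums over all 6 ligands were 110.7 and 37.0 FPKM, and the segment of Nrg1 narrows after day 5.

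The receptors were expressed at a low level on every day, and none was called. Egfr, the receptor for the EGF-like ligands (ENSMUSG00000020122, chromosome 11, 16752203 to 16918158, plus strand), measured 0.182, 0.219 and 0.147 FPKM at day 5, 0.491 and 0.396 FPKM at day 14, and 0.224 and 0.315 FPKM at day 28, from 14 to 50 fragments. Both day 14 libraries were the highest, and the 3 days did not overlap. The log2 fold change from day 5 to day 14 was 1.23 (SE 0.44), short of the threshold (adjusted p = 0.128, edgeR), and from day 5 to day 28 it was 0.66 (SE 0.44, adjusted p = 0.341). Fibroblast markers, which sum to 239 and 88.3 FPKM at day 14 against at most 78.2 FPKM on other days, were highest in the same pair of libraries, although cells positive for Thy1.2 had been excluded. So were neutrophil markers, at 528 and 540 FPKM against at most 289 FPKM. The lymphoid list, led by Cd4, was as well, at 17.0 and 9.56 FPKM against at most 8.94 FPKM. The part of any of these cells in the level of Egfr was not tested.

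Erbb2, the partner receptor that binds no ligand itself (ENSMUSG00000062312, chromosome 11, 98412470 to 98437716, plus strand), measured 0.103, 0.0911 and 0.0380 FPKM at day 5, 0.173 and 0.0557 FPKM at day 14, and 0.0917 and 0.0974 FPKM at day 28, from 4 to 17 fragments. Its libraries overlapped in each comparison, the lowest adjusted p was 0.712 (edgeR), and standard errors of 0.75 to 0.82 on the log2 scale mean that a 1.5-fold change would not have been seen. Without day 14 replicate 1 its log2 fold change turned from 0.54 to -0.45 at day 14 against day 5 and from -0.24 to 0.75 at day 28 against day 14, and without day 5 replicate 3 it turned from 0.29 to -0.02 at day 28 against day 5. Erbb3, a neuregulin receptor with little kinase activity of its own (ENSMUSG00000018166, chromosome 10, 128567523 to 128589652, minus strand), was at 0.870, 0.788 and 0.860 FPKM at day 5, 1.07 and 0.910 FPKM at day 14, and 0.440 and 1.03 FPKM at day 28, from 62 to 81 fragments. Day 28 replicate 1 was the lowest library and replicate 2 was within the range of day 14. Its log2 fold changes were 0.24 (SE 0.37, adjusted p = 0.730, edgeR), -0.45 (SE 0.41, adjusted p = 0.696) and -0.21 (SE 0.37, adjusted p = 0.746) for days 14 vs 5, 28 vs 14 and 28 vs 5. The last 2 turned to 0.06 and 0.31 without day 28 replicate 1.

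**Figure D4:**
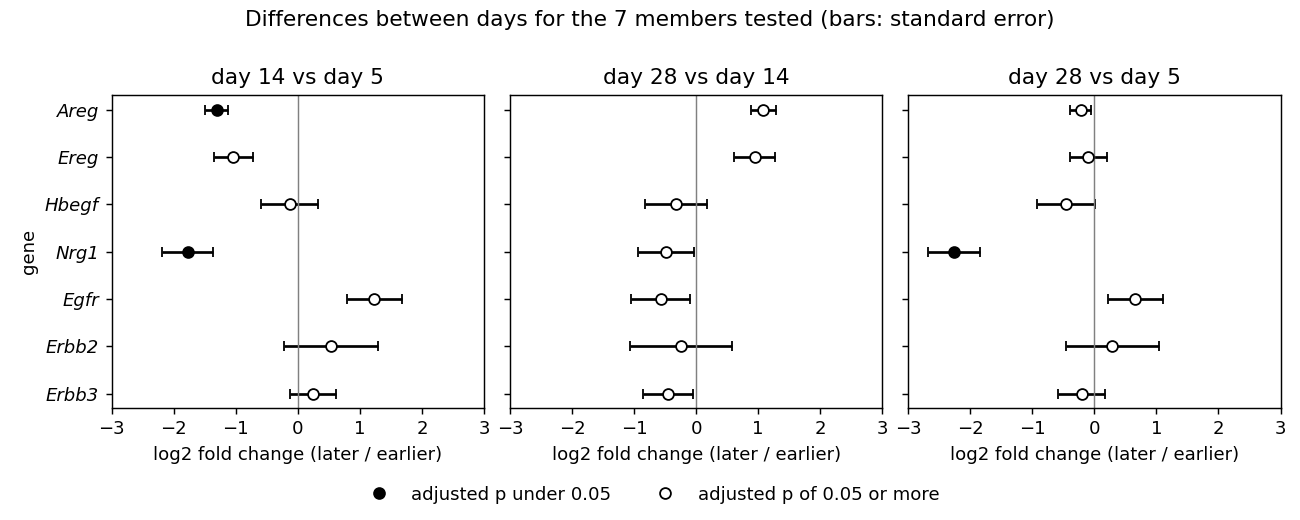
Log2 fold change of the 7 members tested (horizontal axes, later over earlier day) in the 3 comparisons, with bars of 1 standard error and filled points for an adjusted p under 0.05. Filled points are Areg and Nrg1 from day 5 to day 14, at -1.31 and -1.78, and Nrg1 from day 5 to day 28, at -2.26.

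The remaining ligands and the fourth receptor were looked up in the same libraries. These genes and the lists below were also chosen with earlier results known, so their shares called are a description. Erbb4 and Nrg3 had no fragment in any library. Epgn had 0 to 8 fragments and Nrg2 1 to 21. Egf itself, named after its values were seen, had 1 to 39 fragments, and its log2 fold change from day 5 to day 28 was 2.32 (SE 0.75), not called (adjusted p = 0.0677, edgeR). Nrg4, a neuregulin that binds ERBB4, was the most abundant of these genes, at 2.33, 4.64 and 3.91 FPKM at day 5, 2.62 and 1.47 FPKM at day 14, and 1.21 and 1.23 FPKM at day 28. Nrg4 fell by 1.55 on the log2 scale from day 5 to day 28 (SE 0.38, adjusted p = 0.0253, edgeR), and both day 28 libraries were below all others. Of the 6 genes, 2 could be tested, so 1 of 2 was called where 15.2% of all genes were, and the call was lost without day 5 replicate 2 or 3 or either day 28 library (highest adjusted p = 0.152, without day 28 replicate 1).

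Shedding of the ligands was represented by 10 genes, proteases, the iRhom partners of ADAM17 and the inhibitor Timp3, and all 10 were tested. At day 14, 1 was called lower than at day 5 and 0 higher, with a median log2 fold change of -0.27 against 0.03 over all genes tested. At day 28, also against day 5, 2 were called lower and 0 higher, with a median of -0.19 against 0.03. The shares called were 10% and 20%, against 4.78% and 15.2% of all genes tested. Adam9, a membrane protease, averaged 93.8, 64.2 and 63.3 FPKM on days 5, 14 and 28, with log2 fold changes of -0.54 (SE 0.11, adjusted p = 0.0326, edgeR) and -0.55 (SE 0.11, adjusted p = 0.0115) against day 5. Rhbdf2, which encodes iRhom2, the carrier that brings ADAM17 to the cell surface in immune cells, fell by 0.94 from day 5 to day 28 (SE 0.24, adjusted p = 0.0309, edgeR), from a mean of 93.3 to 48.4 FPKM. Adam17 itself, at 97.8, 72.8 and 76.1 FPKM, was not called (adjusted p = 0.0893 and 0.0960 against day 5, edgeR) and is named, after its values were seen, because it cuts several of these ligands. Adam8 was the most abundant, at 274 FPKM over the 7 libraries, and was not called. Each of the 3 calls was lost without at least 1 library, with the highest adjusted p at 0.104 for Adam9 at day 14 without day 5 replicate 3, 0.0703 for Adam9 at day 28 and 0.205 for Rhbdf2, both without day 28 replicate 1.

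Feedback inhibitors of the receptors and of the kinase chain moved in both directions. Of 18 genes, 16 were tested, and 2 were called higher and 2 lower from day 5 to day 14 (median log2 fold change -0.42 against 0.03 for all genes), and 2 higher and 5 lower from day 5 to day 28 (median -0.38 against 0.03). These are 25% and 43.8% of the genes tested, beside 4.78% and 15.2% of all genes. Dusp6, a phosphatase of ERK, was at 11.4, 13.5 and 10.9 FPKM at day 5, 28.9 and 37.4 FPKM at day 14, and 19.8 and 23.3 FPKM at day 28. Its day 14 libraries were the highest and its day 5 libraries the lowest, with no overlap. It rose by 1.48 on the log2 scale at day 14 (SE 0.15, adjusted p = 0.00554, edgeR) and by 0.86 at day 28 (SE 0.15, adjusted p = 0.00722) against day 5. Errfi1, which encodes MIG6, an inhibitor that binds the kinase domain of the EGF receptor, was at 192, 172 and 195 FPKM at day 5, 110.0 and 47.8 FPKM at day 14, and 61.6 and 77.8 FPKM at day 28. All day 5 libraries were above the later ones. Errfi1 changed by -1.24 (SE 0.29, adjusted p = 0.0465, edgeR) and -1.41 (SE 0.29, adjusted p = 0.0147) against day 5. Cblb, a ubiquitin ligase, changed by -0.57 (SE 0.13, adjusted p = 0.0424) and -0.60 (SE 0.13, adjusted p = 0.0173). Spry2, an inhibitor of receptor tyrosine kinase signalling, fell by 1.32 at day 28 (SE 0.27, adjusted p = 0.0141), and Dusp5, the most abundant of the list at 157 FPKM over the 7 libraries, fell by 0.96 at day 28 (SE 0.26, adjusted p = 0.0369), a call not tried with libraries left out. Of the 7 calls for Dusp6, Errfi1, Cblb and Spry2, 1 was kept whichever library was left out, that of Dusp6 at day 14 (highest adjusted p = 0.0340). The highest adjusted p among the others was 0.172, for Cblb at day 14 without day 14 replicate 2.

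The signalling chain from receptor to ERK and AKT was represented by 24 genes, of which 23 were in the table and tested. At day 14, 5 were called lower than at day 5 and 0 higher (median log2 fold change -0.14 against 0.03 for all genes). From day 5 to day 28, 5 were called lower and 2 higher (median -0.21 against 0.03), which makes 21.7% and 30.4% of the list beside 4.78% and 15.2% of all genes. Gab1, a docking protein for activated receptors, had 45.5, 47.0 and 45.8 FPKM at day 5, 30.7 and 20.8 FPKM at day 14, and 19.2 and 19.4 FPKM at day 28. The 3 days did not overlap, and Gab1 changed by -0.84 (SE 0.16, adjusted p = 0.0249, edgeR) and -1.24 (SE 0.16, adjusted p = 0.00214) against day 5. The kinases Braf and Pik3ca changed by -0.84 and -0.48 at day 14 (adjusted p = 0.0197 and 0.0374, edgeR) and by -0.58 and -0.46 at day 28 (adjusted p = 0.0256 and 0.0195). Grb2, the adaptor that is most abundant in the list, was at 145, 144 and 123 FPKM and was not called. Of the 6 calls for Gab1, Braf and Pik3ca, 1 was kept whichever library was left out, that of Gab1 at day 28 (highest adjusted p = 0.0341), and the highest adjusted p among the others was 0.164, for Pik3ca at day 14 without day 14 replicate 2.

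Immediate early genes, which are transcribed within minutes of ERK activation and of many other stimuli, included 18 tested of 19. From day 5 to day 14, 5 were called higher and 1 lower (median log2 fold change 0.37 against 0.03 for all genes), and from day 5 to day 28, 3 higher and 3 lower (median 0.02 against 0.03). In both comparisons 33.3% of the list was called, where 4.78% and 15.2% of all genes were. Jun was at 112, 92.4 and 94.5 FPKM at day 5, 247 and 315 FPKM at day 14, and 130 and 194 FPKM at day 28. It was highest at day 14 with no overlap and rose by 1.51 (SE 0.19, adjusted p = 0.00926, edgeR) at day 14 and 0.72 (SE 0.19, adjusted p = 0.0321) at day 28. Fosl1, another AP-1 subunit, changed by -1.50 (SE 0.27, adjusted p = 0.0211, edgeR) and -1.65 (SE 0.27, adjusted p = 0.00547). Fosl2 and Ier3 changed by -0.72 and -0.97 at day 28 (adjusted p = 0.0112 and 0.00625, edgeR). Fos, Egr1, Ier2 and Myc, not among the genes named by rank, were called higher at day 14 too. Their log2 fold changes were 1.13, 1.39, 0.95 and 0.97 (adjusted p = 0.0209, 0.0383, 0.0484 and 0.0369, edgeR). Fos and Myc were also called higher at day 28 (0.775 and 0.897, adjusted p = 0.0301 and 0.0215, edgeR). Their calls with libraries left out are not given here. Junb was the most abundant, at 1231 FPKM over the 7 libraries, and was not called. Of the 6 calls for Jun, Fosl1, Fosl2 and Ier3, only that of Jun at day 14 was kept whichever library was left out (highest adjusted p = 0.0436), and the highest adjusted p among the others was 0.202, for Jun at day 28 without day 28 replicate 2. Dissociation of tissue is known to induce such genes, and neither it nor the time between harvest and lysis was tested.

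Amphiregulin transcription is known to respond to cAMP and prostaglandin E2, so 10 genes of these inputs were taken as well, and all were tested. From day 5 to day 14, 2 were called higher and 2 lower, and from day 5 to day 28, 2 higher and 3 lower, with medians of -0.10 and -0.05 against 0.03 for all genes in both comparisons. The calls made up 40% and 50% of the list, against 4.78% and 15.2% of all genes. Adora2b, an adenosine receptor that raises cAMP, was at 102, 95.3 and 83.1 FPKM at day 5, 49.5 and 28.3 FPKM at day 14, and 30.4 and 37.8 FPKM at day 28. It changed by -1.26 (SE 0.22, adjusted p = 0.0209, edgeR) and -1.44 (SE 0.22, adjusted p = 0.00447) against day 5, with all day 5 libraries above the rest. Crem, a cAMP-responsive transcription factor gene, changed by -1.14 (SE 0.21, adjusted p = 0.0234) and -1.32 (SE 0.21, adjusted p = 0.00511). Ptger2, a receptor for prostaglandin E2, rose by 0.98 at day 28 (SE 0.17, adjusted p = 0.00755, edgeR). Ptgs2, the inducible cyclooxygenase and the most abundant of the list, had 490, 349 and 365 FPKM at day 5, 287 and 182 FPKM at day 14, and 355 and 399 FPKM at day 28. Like Areg it was lowest in the pair of day 14 libraries, but it was not called (log2 fold change -0.77, SE 0.21, adjusted p = 0.0720, edgeR). Each of the 5 calls for Adora2b, Crem and Ptger2 was lost without at least 1 library, with the highest adjusted p at 0.0847, for Crem at day 14 without day 5 replicate 3. Meloxicam around surgery was part of the procedure on every day, and its part in the levels of these genes was not tested.

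**Figure D5:**
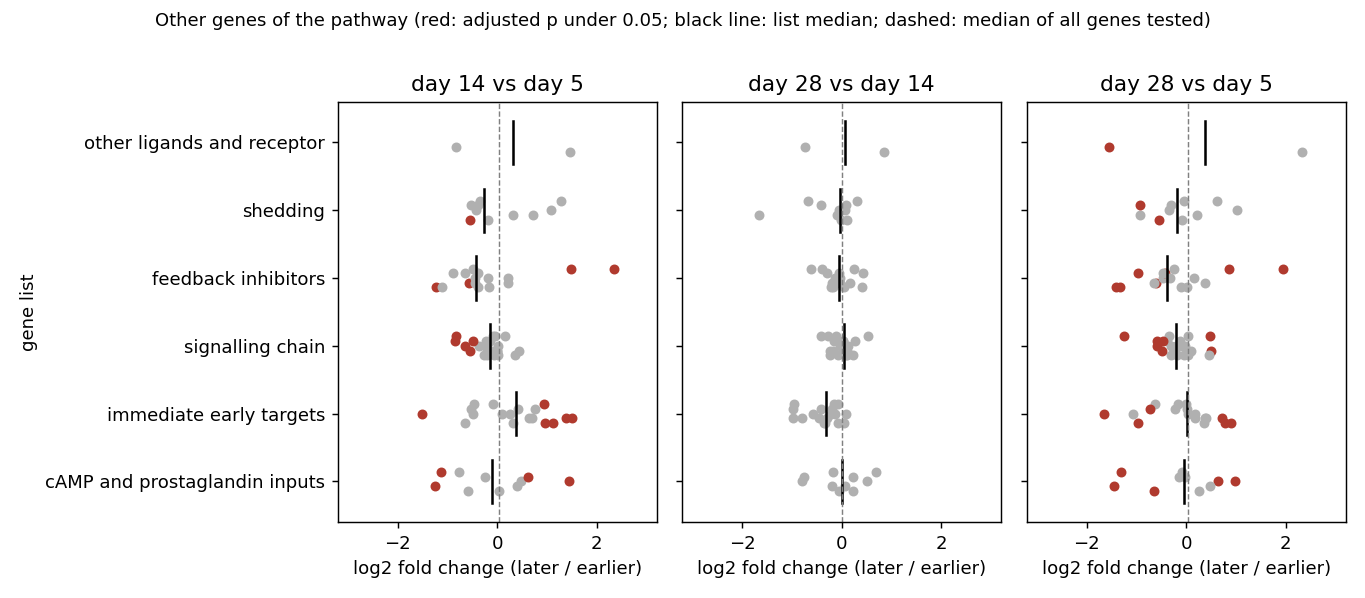
Log2 fold change of the tested genes of the 6 pathway lists (horizontal axes) in the 3 comparisons, with red points for an adjusted p under 0.05, a black line at the median of each list and a dashed line at the median of all genes tested. Between days 14 and 28 no point is red, while red points lie on both sides of 0 among the feedback inhibitors in the comparisons with day 5.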

How the data were processed

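The members and lists were chosen with earlier results of these data known. The authors used cutadapt 1.8 to trim reads, TopHat2 2.0.13 to map them to mm10 and Cuffdiff 2.2.1 to quantify genes, per the submitters' processing notes and the study's methods. They deposited estimated counts, the expected counts of fragments for each gene. A scaled signal was deposited as well, the counts times 1 factor per library. The FPKM deposited by the authors divides scaled fragments by transcript length. Sharing of reads between similar or overlapping genes, and use of strand, were not given in the sources used here, which leaves the levels of overlapping genes and of paralogs uncertain.

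Estimated counts, 1.01% of them not whole, were rounded for edgeR 4.0.16 (R 4.3.3), with TMM factors, a filter on low counts by day, time point as the only factor and 4 residual degrees of freedom. SE is the size of the log2 fold change over the root of F and is approximate. The code was tested on simulated data. Alternatives were DESeq2 1.42.0, limma 3.58.1 on log2 FPKM values, other scaling, no filter, fits of the 2 days compared, a replicate block, each library left out and an adjusted p under 0.01. Tables and figures were made with Python 3.11.15, numpy 2.4.6, pandas 2.3.3 and matplotlib 3.10.9.

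Named genes were the members and, of each pathway list, up to 4 called genes with the lowest adjusted p and the most abundant gene, not all of which are described. Likeness was the Pearson correlation of log2(FPKM + 1) over 7 libraries, among genes with a mean of at least 5 FPKM. Positions came from the GENCODE annotation of GRCm38, and gene order and promoters from RefSeq, GRCm38.p6.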

Additional observations from a re-analysis of the deposited data

How the results depend on the processing

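Most calls depended on single libraries, with 2 or 3 a day. Of 334 values of the members under alternatives, 297 kept their direction and side of the threshold, 14 reversed, 12 were no longer called and 11 became called. Between days 5 and 14, 2 members were called. This became 1 with limma at either pseudocount and in the fit of only the 2 time points compared, 0 at an adjusted p under 0.01, 3 with DESeq2, 3 without the filter, and 0 to 3 without single libraries. Of all genes, 4.78% were called there, 1.96% and 2.15% with limma, 2.52% in the fit of those days alone, 10.6% with DESeq2, 8.26% without the filter, and 0.407% to 12.96% without single libraries. Between days 14 and 28, none was called, against 1 with DESeq2, 2 without the filter, and 0 to 3 without single libraries. The share of all genes called moved as well, from 0.0622% to 2.58% with DESeq2, 2.25% without the filter and 4.70% without day 14 replicate 2, the setting that gave 3 members. Between days 5 and 28, 1 was called, and 0 to 1 without single libraries, beside 15.2% of all genes, and 3.40% (without day 28 replicate 1, with 0 members) to 20.6% without single libraries. Where a day kept 1 library, it was assumed to vary like the other days.

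Without single libraries, log2 fold changes turned direction, in ranges from lowest to highest. From day 5 to day 14 these were -1.34 to 0.52 for Hbegf and -0.45 to 1.15 for Erbb2. From day 14 to day 28 they were -0.98 to 0.89 for Hbegf, -1.12 to 0.60 for Nrg1, -0.86 to 0.75 for Erbb2 and -1.17 to 0.062 for Erbb3. From day 5 to day 28 they were -0.48 to 0.003 for Areg, -0.31 to 0.12 for Ereg, -0.023 to 0.56 for Erbb2 and -0.92 to 0.31 for Erbb3. The cause was not tested.

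Replicate numbers are shared by label only, and the deviations of libraries with the same number correlated at -0.15 to 0.40. With the replicate number as a block, 0 members were called between days 5 and 14, 0 between days 14 and 28 and 1 between days 5 and 28, and Erbb2 from day 5 to day 28 was at -0.028. The calls of Areg and Nrg1 at day 14 were then at adjusted p = 0.0610 and 0.119 (edgeR). With the block, Dusp6 at day 14 and Gab1 at day 28 stayed called, whereas Jun at day 14 was no longer called. Other pathway calls were lost under settings beyond single libraries as well, such as Errfi1 at day 14 with limma at either pseudocount. Over all genes, 6, 0 and 735 were called with the block, against 614, 8 and 1960 without. With the day 28 numbers swapped in the block, chosen after seeing the data, 3, 0 and 1 members were called, and 357, 63 and 1579 of all genes.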

Other observations

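The genes most like each member over the 7 libraries, out of about 7555 genes with a mean of at least 5 FPKM, were described by the Pearson correlation of log2(FPKM + 1). Such values rest on 7 points in 3 groups, and high values arise easily among so many genes. For Areg they were Usp15 (0.975), Fbxo28 (0.963) and Hook3 (0.963), and for Ereg Slmo2 (0.972), Emg1 (0.952) and Gxylt1 (0.951). For Hbegf they were Ccl5 (0.979), Rcan1 (0.977) and Mapkapk3 (0.959). For Nrg1 they were Errfi1 (0.995), Ndel1 (0.995) and 1700088E04Rik (0.994). For Egfr they were Osgin1 (0.973), Map3k14 (0.964) and Pnpla2 (0.953), for Erbb2 Pdgfa (0.923), Snx11 (0.908) and Cp (0.906), and for Erbb3 Arl10 (0.967), Zbtb4 (0.966) and Mkl1 (0.960).

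Areg, Ereg and Btc lie in a row on chromosome 5 with Epgn, over 375.5 kb. The nearest 3 genes tested before Ereg were Cxcl1, Cxcl2 and Mthfd2l, and after Areg they were Rchy1, Thap6 and Cdkl2. From day 5 to day 14 the log2 fold changes of Cxcl1, Cxcl2 and Mthfd2l were -0.74 (adjusted p = 0.0366, edgeR), -0.54 (adjusted p = 0.0938) and -0.54 (adjusted p = 0.239), beside -1.04 for Ereg and -1.31 for Areg. On the other side Rchy1, 800.4 kb from Areg, was at 0.01 (adjusted p = 0.968), Thap6 at -0.48 (adjusted p = 0.209) and Cdkl2 at 0.78 (adjusted p = 0.226). The 6 nearest tested neighbours of Nrg1, Tti2, Mak16, Fut10, Wrn, Purg and Tex15, were not called in any comparison, where Nrg1 changed by -1.78 and -2.26 against day 5. Of all genes tested, 4.78%, 0.0622% and 15.2% were called for days 14 vs 5, 28 vs 14 and 28 vs 5, so few calls would be awaited among 6 genes.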
